A study of Mus musculus with 18 samples.

Results

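Naive CD4+ T cells with a high Nr4a1 reporter signal were compared with low-signal cells of the same organ, the axillary lymph nodes. The 6 libraries whose titles name axillary naive T cells with high or low tonic T cell receptor (TCR) stimulation were taken, 3 axillary high and 3 axillary low, of 18 in all. The other 12 libraries hold the same 2 levels from spleen and mesenteric nodes. Accessible chromatin was mapped by ATAC-seq, in which Tn5 transposase cuts open DNA and leaves adapters for sequencing. The axillary high group consisted of untreated naive CD4+ T cells labelled WT from C57BL6/J mice, with high Nr4a1-dsGFP, a green fluorescent protein reporter named for Nr4a1. The axillary low group had the same genotype label, strain and absence of treatment, with low Nr4a1-dsGFP. All groups thus carry the reporter, although the genotype label does not name it. The labels call the 3 libraries of a group biological replicates without tying them to animals, and the p-values given here therefore cover variation among these libraries alone, part of which may be technical.

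Naive T cells receive weak TCR signals from self peptides while they circulate, which is called tonic stimulation. Nr4a1 encodes an orphan nuclear receptor that TCR signals switch on within the first wave of response genes, and its reporters are used to read how much TCR signal a cell receives. Cd5, a surface receptor that damps TCR signals, is another marker of how strongly a naive cell has been stimulated. The Nr4a1 promoter window, the 300 bases around a start site, is printed because the reporter is named for this gene and because the strongest difference between the levels lay around it. It lies at chr15:101266596-101266895 on the + strand of GRCm38 (mm10), as given by RefSeq for GRCm38.p6. Capitals mark matches on either strand to an ETS core (CCGGAA) or a GC box (GGGCGG), which this window holds 1 and 3 times.
Nr4a1: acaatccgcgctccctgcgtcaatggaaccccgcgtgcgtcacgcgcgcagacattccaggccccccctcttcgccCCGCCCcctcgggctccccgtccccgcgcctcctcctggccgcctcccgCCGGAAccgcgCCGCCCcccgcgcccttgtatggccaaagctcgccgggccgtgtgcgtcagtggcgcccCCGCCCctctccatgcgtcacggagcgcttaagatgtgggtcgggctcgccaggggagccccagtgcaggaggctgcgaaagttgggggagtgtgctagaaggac
Of 32619 such windows of RefSeq genes, 15.0% held the ETS core and 35.9% the GC box on either strand. Neither the full cyclic AMP response element (TGACGTCA), which 1.80% of windows held, nor the NBRE that Nr4a receptors bind (AAAGGTCA), in 1.52%, was in these 300 bases.

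The 3 axillary high libraries listed 15695, 15898 and 14778 peaks on chromosomes 1 to 19 and X, against 15092, 14372 and 14434 in the 3 axillary low libraries. These lists overlapped between the levels, with means of 15457 ± 597 in high and 14633 ± 399 in low libraries (SD, n = 3 each, exact permutation test, two-sided, p = 0.20). The genome-wide background recovered from the peak values, a relative depth, was 9.60, 10.2 and 9.85 reads per 10 kb in high libraries and 9.53, 9.24 and 8.48 in low libraries. Every high library was thus deeper than every low library, which gave the smallest p that 3 against 3 libraries allow (exact permutation test, p = 0.10). High replicate 2 stood apart in its fragment estimate, 176 bp, against 226 and 236 bp in the other high libraries and 216 to 232 bp in low libraries. Peaks within 1000 bp of an end of a protein-coding gene made up 47.9% ± 0.845 of the list in high and 48.9% ± 0.887 in low libraries (SD, n = 3 each, exact permutation test, p = 0.20). With the 14372 strongest peaks of each library, the shortest list's length, these shares were 49.4% ± 0.264 in high and 49.3% ± 0.351 in low libraries, so the small difference turned round.

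**Figure D1:**
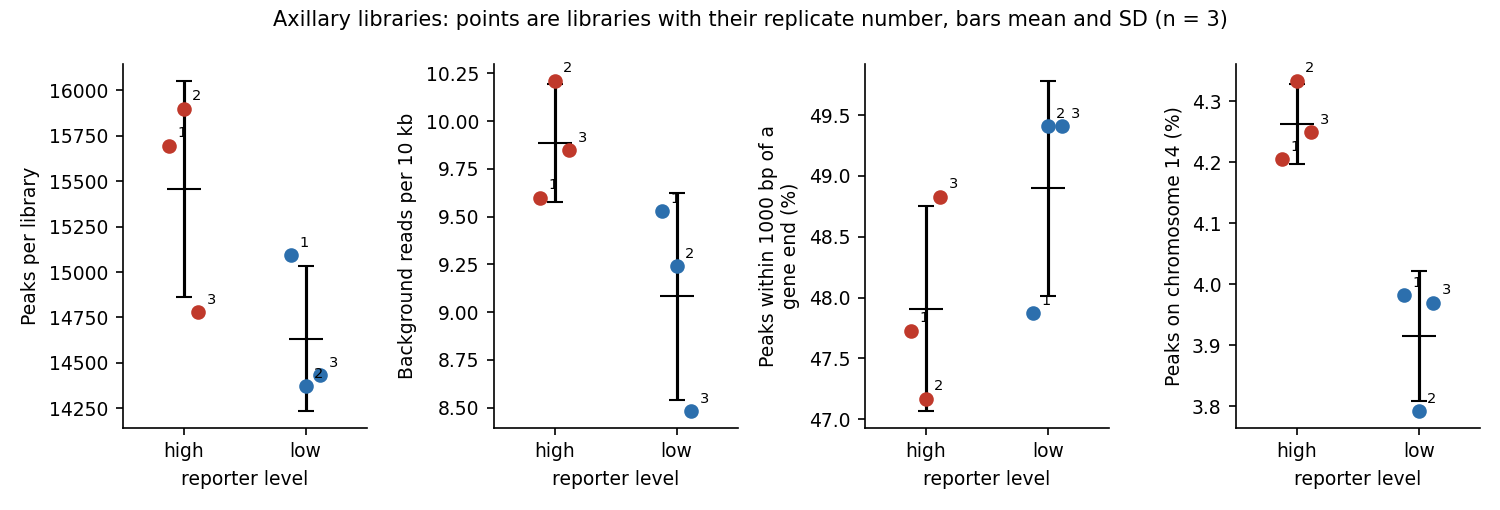
Peaks per library, recovered background reads per 10 kb, percent of peaks near a gene end and percent of peaks on chromosome 14 for each axillary library, high left of low, with replicate numbers, mean and SD. The depth and the chromosome 14 share of the 3 high libraries all lie above those of the 3 low libraries, while peak numbers and gene-end shares overlap. The vertical axes do not start at 0.

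The libraries of both levels described nearly the same landscape. Of 22148 union regions (merged peaks of all 18 libraries) with a peak in at least 1 axillary library, 9612 (43.4%) had one in all 6, and 4604 had one in a single library. The share of regions common to a pair of libraries, out of those found in either, was 0.686 to 0.693 between high libraries, 0.697 to 0.702 between low libraries and 0.679 to 0.692 across the levels. Recovered reads at summits present in both libraries of a pair differed by less than counting noise in all 15 pairs. The chi-square per region was 0.564 to 0.572 between high libraries, 0.553 to 0.576 between low libraries and 0.594 to 0.627 across the levels. Every pair within a level lay below every pair across levels. Since the pairs across levels were below 1 too, no pair of replicates was singled out as a single library deposited more than once. Each was kept as a replicate, although these values cannot show whether replicates were split from 1 pool. The limma errors on recovered reads rest on this small spread, so their p-values do not measure variation among animals.

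All 3 high libraries and no low library had a peak in 188 regions, called high-only here (0.849% of those with an axillary peak), and the opposite pattern, low-only, was found in 72 (0.325%). With lists of equal length the counts were 117 (0.555%) and 113 (0.536%), so the surplus of high-only regions held for the lists as deposited and not for lists of equal length. All 3 high libraries were deeper, and the part of depth in the surplus was not tested beyond this. Of the 113 low-only regions at equal length 47 had a weak high peak in the deposited lists, and 10 of the 117 high-only regions had a weak low peak. Of the 188 high-only regions 107 were still high-only with equal lists, and of the 72 low-only regions 66 were still low-only. A region without a listed peak can still be open below the caller's threshold. In these sorted populations fewer cells with an open region and less opening per cell cannot be told apart.

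**Figure D2:**
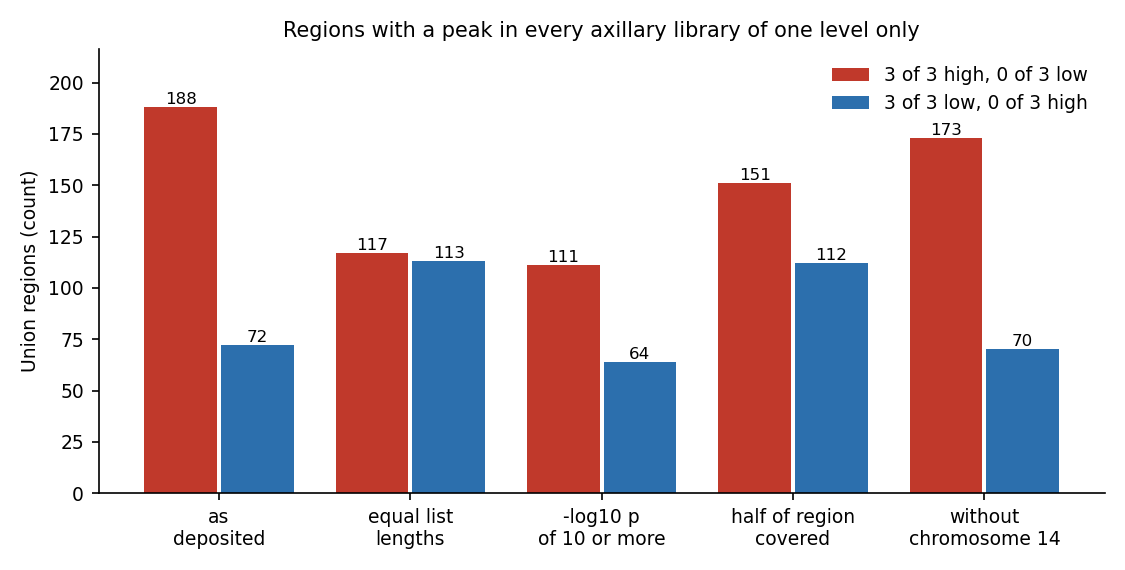
Number of union regions with a peak in every axillary library of one level and in none of the other, for high (red) and low (blue), under 5 settings. High-only regions outnumber low-only regions 188 to 72 as deposited, while equal list lengths give 117 and 113.

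Both kinds of region were weak peaks. Ranked by −log10 p within each library, where 100 is the strongest peak, the median high-only region stood at the 22.4 percentile and the median low-only region at the 23.2 percentile, close to the 21.9 of all 1856 regions with a peak in exactly 3 axillary libraries. The median of their mean fold (summit reads over local background, the authors' value) was 6.34 in high-only and 6.54 in low-only regions, while the median peak of an axillary library had a fold of 7.83 to 8.02. They were mostly distal. A share of 23.9% of high-only and 22.2% of low-only regions had their centre within 1000 bp of a gene end, beside 23.7% of regions in exactly 3 axillary libraries, 38.7% of all axillary regions and 60.5% of regions found in all 6 libraries. A promoter window overlapped 20.2% of high-only and 16.7% of low-only regions, beside 20.2% of regions in exactly 3 libraries and 56.6% of the shared regions. High-only regions lay inside a protein-coding gene in 54.8% of cases and low-only regions in 68.1%, beside 61.2% of all axillary regions.

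The 12 high-only regions with the strongest peaks were led by a region inside Tnfrsf19, a receptor gene of the TNF receptor family (chr14:61012399-61012844, 34234 bp from the nearer end). Its fold was 11.6, 8.04 and 10.1 in the high libraries (mean 9.89 ± 1.78, SD, n = 3), with no peak in a low library. In the other organs it had a peak in 3 of 3 spleen high, 1 of 3 spleen low, 3 of 3 mesenteric high and 1 of 3 mesenteric low libraries. A region in Stra8, a gene of meiotic entry in germ cells (chr6:34938197-34938705), followed with folds of 7.88, 9.79 and 8.06. Promoter windows were overlapped at Cmya5, a muscle protein gene (chr13:93144152-93144979), Pspc1, a paraspeckle component (chr14:56778083-56778798), and Dclk2, a microtubule-associated kinase gene (chr3:86920258-86920993). The mean folds in the high libraries were 8.19 ± 0.935 at Cmya5, 7.68 ± 1.07 at Pspc1 and 7.50 ± 0.526 at Dclk2 (SD, n = 3).

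Closest to TCR biology in this group was a region 3613 bp outside Sit1 (chr4:43478236-43478705), which encodes a transmembrane adaptor that damps TCR signals. Its fold was 8.61, 6.32 and 8.44 in the high libraries, and 3 of 3 spleen high, 2 of 3 spleen low and all 6 mesenteric libraries had a peak there. A region inside Arhgef6 (chrX:57253496-57253973) had folds of 8.67, 5.86 and 9.67. Another region inside Arhgef6 (chrX:57304814-57305337) went the other way. It was low-only, also with equal lists, with folds of 6.91, 8.16 and 6.34 in the low libraries. The other members of the 12 high-only regions lay near P4ha2, Cdh10, Psd3, Slc12a8 and A1bg, with mean folds of 7.69 to 7.96. The last of these lay 520557 bp from that gene, in a stretch with no nearer gene end (chr15:61441649-61442005), and was found in 2 of 3 spleen high, 0 of 3 spleen low, 2 of 3 mesenteric high and 0 of 3 mesenteric low libraries. All 12 were still high-only with equal lists.

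The 12 strongest low-only regions were led by a region inside Deup1, a gene of centriole amplification in multiciliated cells (chr9:15582047-15582382). Its fold was 10.2, 7.18 and 7.05 in the low libraries (mean 8.14 ± 1.78, SD, n = 3), with no peak in a high library, and 0 of 3 spleen high and 1 of 3 spleen low libraries had a peak there. In mesenteric nodes 2 of 3 high and 3 of 3 low libraries had a peak in the Deup1 region. A region inside Ssh2, a cofilin phosphatase gene of actin turnover (chr11:77371177-77371535), had folds of 9.49, 8.99 and 6.34 in the low libraries. In contrast to the axillary order, it had a peak in 3 of 3 spleen high and 1 of 3 spleen low libraries.

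A further low-only region lay inside Stk4, whose kinase (Mst1) is needed for survival and trafficking of naive T cells (chr2:164079534-164079863). Its folds were 7.18, 5.998 and 5.26 in the low libraries. A region inside Sema7a, a membrane-anchored semaphorin gene (chr9:57956729-57957331), had folds of 8.17, 8.61 and 6.56 in the low libraries and was found in 2 of 3 spleen high, 0 of 3 spleen low and all mesenteric libraries. A region inside Maml3, a Notch coactivator gene (chr3:51701128-51701892), had folds of 9.63, 8.20 and 5.83 in the low libraries and a peak in all 12 libraries of the other organs. The remaining regions lay in or next to Paqr8, Jade2, Zfp7, Pde4d, Pigp, Pan3 and Mfhas1, with mean folds of 6.27 to 7.94. All 12 were still low-only with equal lists.

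In the libraries of the other organs, which played no part in the choice, high-only regions had a peak in 63.8% of spleen high and 47.3% of spleen low region-library pairs, and in 87.9% of mesenteric high and 54.1% of mesenteric low ones. Low-only regions had 54.2% in spleen high, 54.6% in spleen low, 85.6% in mesenteric high and 62.5% in mesenteric low libraries. All 12536 regions with a peak in 1 to 5 axillary libraries had 49.5% in spleen high, 46.8% in spleen low, 74.0% in mesenteric high and 50.5% in mesenteric low libraries. The 1856 regions in exactly 3 axillary libraries are the closer match and had 59.7%, 55.5%, 86.7% and 61.3% in the same order. Beside these, high-only regions were slightly more frequent in high libraries and differed mainly by lower shares in low libraries. In spleen, all 3 high libraries held more of the axillary high-only regions (60.1 to 66.5%) than any low library (35.1 to 56.9%). The lowest of these was spleen low replicate 3, whose list was the shortest in spleen, and the other two low libraries were still below every high library. For the low-only regions the spleen levels overlapped, with 47.2 to 62.5% in high and 38.9 to 68.1% in low libraries. All variable axillary regions overlapped there too, with 48.3 to 50.9% in high and 35.8 to 53.2% in low libraries. In mesenteric nodes every high library held more of both classes than every low library. The mesenteric high lists were also longer, with 23043 ± 137 peaks against 17346 ± 144 in mesenteric low libraries (SD, n = 3 each). Each of the 188 high-only and 72 low-only regions was found in at least 1 of the other 12 libraries, and 14 high-only and 4 low-only regions were in all of them.

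**Figure D3:**
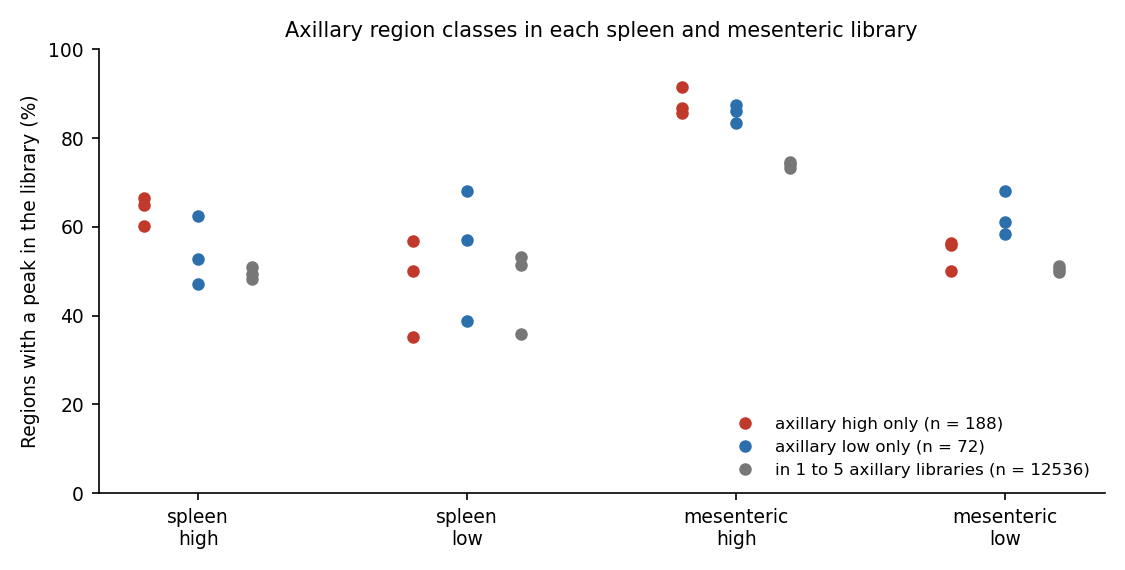
Percent of axillary high-only, low-only and all variable axillary regions with a peak in each spleen and mesenteric library, high left of low within an organ; each point is a library. In spleen the high-only regions are found in 60.1 to 66.5% by high and 35.1 to 56.9% by low libraries, and in mesenteric nodes every class is highest in high libraries.

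Of the 772 axillary regions assigned to any of 267 annotated genes of T cell function or cell type lists, 15 were high-only (1.94%, beside 0.849% of all regions) and 3 were low-only (0.389%, beside 0.325%). With equal lists 12 of 731 were high-only (1.64%, beside 0.555%) and 6 were low-only (0.821%, beside 0.536%). The lists were chosen with earlier results of these data known, so these shares are descriptions. Negative regulators of TCR signals had 3 high-only regions (2.91%) and 1 low-only region (0.971%) of 103. Besides Sit1, high-only regions lay 67328 bp outside Ubash3b, a phosphatase gene that acts on TCR-proximal kinases (chr9:41228757-41229283), and 35937 bp outside Tnfaip3, which encodes the NF-kB inhibitor A20 (chr10:18964796-18965151). The folds in the high libraries were 8.36, 6.78 and 6.47 at Ubash3b and 4.98, 6.41 and 8.18 at Tnfaip3. The Ubash3b region was also found in 3 of 3 spleen high and 0 of 3 spleen low libraries. In mesenteric nodes it was found in 3 of 3 high and 3 of 3 low libraries. The Tnfaip3 region was found in 3 of 3 mesenteric high and 0 of 3 mesenteric low libraries. In spleen it was found in 1 of 3 high and 0 of 3 low libraries. The low-only region of this list lay inside Ptpn22, a phosphatase gene that restrains TCR kinases (chr3:103885900-103886378), with folds of 7.28, 5.46 and 7.01 in the low libraries. In contrast to the axillary order, the Ptpn22 region was found in 3 of 3 spleen high and 1 of 3 spleen low libraries. In mesenteric nodes it was found in 3 of 3 high and 2 of 3 low libraries.

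TCR response genes had 2 high-only regions of 105 (1.90%) and none low-only, beside 0.849% high-only and 0.325% low-only of all axillary regions. Counts this small in a list are descriptions. One lay 453 bp from Egr3, an immediate early transcription factor gene (chr14:70076648-70077081), with folds of 4.68, 5.14 and 5.92 in the high libraries. The other lay 20716 bp outside Cd200, an inhibitory surface ligand gene (chr16:45361133-45361658), with folds of 6.30, 5.92 and 6.90. The proximal TCR machinery had 2 high-only regions of 105 (1.90%) and none low-only. They lay inside Prkcq, the protein kinase C theta gene (chr2:11254202-11254858), and 54077 bp outside Fyn, a Src kinase gene (chr10:39315393-39315939). Mean folds there were 6.89 ± 0.449 and 6.64 ± 1.00 in high libraries (SD, n = 3). Helper lineage factors had 3 high-only regions of 68 (4.41%), near Gata3, Prdm1 and Runx1, and none low-only. Their mean folds were 5.35 ± 0.222, 5.84 ± 1.47 and 4.96 ± 0.395 in the high libraries (SD, n = 3). Spleen reversed the axillary order at Prdm1, where all 3 low libraries but no high library listed the region. Mesenteric lists held the Prdm1 region in 3 high and 2 low libraries. For Runx1, 1 spleen low library, no spleen high library and 1 mesenteric library of each level listed the region. The Gata3 region was listed by 2 spleen libraries of each level, 3 mesenteric high and 2 mesenteric low libraries.

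Naive and quiescence genes had high-only regions inside Bcl2, the survival gene (chr1:106663133-106663438), and 98420 bp outside Btg1, an antiproliferative gene (chr10:96721051-96721416). They also had a low-only region inside Foxp1, a factor that keeps naive T cells quiescent (chr6:99428881-99429366). Mean folds were 5.96 ± 0.377 and 5.43 ± 0.296 in high libraries and 6.36 ± 0.484 in low libraries (SD, n = 3). One region each was high-only near Il2 (47504 bp away, 6.79 ± 1.71) and inside Itgb2, the beta chain of leukocyte integrins (6.49 ± 0.457). The lists of activation factors (80 regions), interferon response genes (17) and housekeeping genes (21) had none in either direction. The shares of all axillary regions were 0.849% high-only and 0.325% low-only. With equal lists 11 of the 15 high-only regions near listed genes were still high-only, and those of Tnfaip3, Gata3, Runx1 and Il2 had lost a high library.

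Markers of the sorted type were present. Of 14 naive CD4 T cell markers 13 had an axillary region, with 33 to 34 peaks in high and 30 to 32 in low libraries. Their summed summit reads, divided by background reads per 10 kb, were 62.1 to 71.5 in high and 65.1 to 74.8 in low libraries. B cell markers had 1 region, at Cr2, which was high-only (folds of 6.30, 7.02 and 6.42), while Cd79a, Cd79b, Ms4a1 and Pax5 had none in any axillary library. The Cr2 region was in all 12 other libraries. Foxp3, Cd8a, Ncr1, Csf1r, Itgax, Gata1 and Pdgfra had no region either, but other markers of the same cell types did. A region was found for 5 of 6 regulatory T, 2 of 3 CD8 T and 5 of 6 natural killer markers. The same held for 1 of 9 myeloid, 2 of 7 dendritic, 2 of 6 erythroid and 3 of 8 stromal markers. The empty genes alone thus do not show that a cell type was absent. Natural killer markers had 3 to 5 peaks in high and 5 to 6 in low libraries, with a summed level of 5.69 to 6.17 in high and 8.08 to 9.85 in low libraries, and 1 low-only region 81580 bp outside Eomes. The part of these cells in the low-only regions was not tested. Regulatory T cell markers other than Foxp3 had 10 to 12 peaks in high and 11 to 13 in low libraries, and CD8 T, myeloid, dendritic, erythroid and stromal markers had at most 5 in a library.

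Fold was then compared at the 9612 regions with a peak in all 6 libraries. None passed in either direction, 0 higher and 0 lower in high (0% each, limma on median-centred log2 fold with Benjamini-Hochberg adjustment, smallest adjusted p = 0.747). At an unadjusted p under 0.05 there were 246 regions higher and 289 lower in high. The 5th and 95th percentiles of the log2 difference were -0.28 and 0.28, with a median standard error of 0.167. Regions among the 6 with the smallest p in each direction are given next. They missed the threshold, and they were picked for their difference, so their values describe the edges of the distribution. At each of the 12 the fold of the 3 high libraries did not overlap with that of the 3 low libraries.

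On the higher side, the region at the start of Mybl2, a transcription factor gene of proliferating cells (chr2:163054306-163054797), had folds of 13.3, 14.7 and 15.7 in high and 9.09, 10.5 and 9.56 in low libraries (log2 difference 0.58 ± 0.128 SE, limma adjusted p = 0.747). A region inside Elk3, an ETS transcription factor gene (chr10:93227843-93228359), had 10.7, 13.6 and 11.1 in high and 7.99, 6.23 and 7.45 in low libraries (0.69 ± 0.165 SE). The promoter regions of Cchcr1, a centrosomal coiled-coil protein gene, Atf6b, a factor of the endoplasmic reticulum stress response, and Htatip2, an oxidoreductase gene, had mean folds of 11.6, 13.9 and 11.1 in high libraries, against 7.41, 9.56 and 7.07 in low libraries. The last was inside Rnf220, a ubiquitin ligase gene, with 9.40 ± 0.804 in high and 5.91 ± 0.806 in low libraries (SD, n = 3 each). The Cchcr1 region also overlapped a promoter window of Tcf19, so its values cannot be assigned to Cchcr1 alone.

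On the lower side, the promoter of Ssb, whose product La binds the ends of small RNAs (chr2:69860923-69861984), had folds of 5.52, 5.69 and 5.78 in high and 9.13, 8.16 and 9.39 in low libraries (log2 difference -0.66 ± 0.174 SE, limma adjusted p = 0.747). A region inside Cdh1, the E-cadherin gene (chr8:106643067-106643591), had 8.07, 9.38 and 7.83 in high and 12.5, 12.9 and 11.2 in low libraries. A region inside Pard3, a cell polarity gene, had a mean fold of 9.25 in high libraries, against 12.9 in low libraries. The list closed with Pus7, a pseudouridine synthase gene (6.72 ± 0.950 in high and 10.2 ± 1.04 in low libraries, SD, n = 3 each), and a region 74062 bp from Olfr291.

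Of these 12 regions 6 overlapped a promoter window of their gene, printed here since a start site itself is what the peak covers there. Capitals mark, on either strand, the ETS core, the GC box, a CCAAT box (CCAAT, in 37.6% of all windows), an AP-1 site (TGANTCA, 7.85%), the cyclic AMP response element or the NBRE. The windows lie at chr2:163054385-163054684 (Mybl2, + strand), chr17:35516799-35517098 (Cchcr1, + strand), chr17:34646896-34647195 (Atf6b, + strand), chr7:49758856-49759155 (Htatip2, + strand), chr2:69861312-69861611 (Ssb, + strand) and chr5:23783662-23783961 (Pus7, − strand), from RefSeq for GRCm38.p6.
Mybl2: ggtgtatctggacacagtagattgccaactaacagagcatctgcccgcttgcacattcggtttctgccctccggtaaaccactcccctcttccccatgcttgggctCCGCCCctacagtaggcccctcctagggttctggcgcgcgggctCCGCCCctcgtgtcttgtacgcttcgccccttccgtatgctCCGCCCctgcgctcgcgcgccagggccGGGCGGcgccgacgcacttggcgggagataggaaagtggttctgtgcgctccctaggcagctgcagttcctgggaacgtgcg
Cchcr1: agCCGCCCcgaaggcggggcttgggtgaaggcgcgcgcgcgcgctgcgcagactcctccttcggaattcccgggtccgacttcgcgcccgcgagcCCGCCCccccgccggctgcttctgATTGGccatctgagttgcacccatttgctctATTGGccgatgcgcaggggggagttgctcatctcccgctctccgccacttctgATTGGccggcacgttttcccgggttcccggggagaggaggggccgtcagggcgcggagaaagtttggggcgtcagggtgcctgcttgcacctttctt
Atf6b: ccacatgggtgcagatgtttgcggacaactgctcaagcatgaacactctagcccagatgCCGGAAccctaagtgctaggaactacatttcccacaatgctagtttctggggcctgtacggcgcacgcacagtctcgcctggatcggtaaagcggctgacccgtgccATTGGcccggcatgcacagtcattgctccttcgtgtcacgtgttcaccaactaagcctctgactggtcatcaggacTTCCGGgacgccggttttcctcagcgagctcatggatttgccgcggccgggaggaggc
Htatip2: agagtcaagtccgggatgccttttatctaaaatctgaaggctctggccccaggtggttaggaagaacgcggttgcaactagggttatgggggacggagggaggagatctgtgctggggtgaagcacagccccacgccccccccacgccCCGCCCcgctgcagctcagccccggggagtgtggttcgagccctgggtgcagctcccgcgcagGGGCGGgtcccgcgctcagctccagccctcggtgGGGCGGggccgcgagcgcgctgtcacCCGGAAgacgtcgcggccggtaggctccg
Ssb: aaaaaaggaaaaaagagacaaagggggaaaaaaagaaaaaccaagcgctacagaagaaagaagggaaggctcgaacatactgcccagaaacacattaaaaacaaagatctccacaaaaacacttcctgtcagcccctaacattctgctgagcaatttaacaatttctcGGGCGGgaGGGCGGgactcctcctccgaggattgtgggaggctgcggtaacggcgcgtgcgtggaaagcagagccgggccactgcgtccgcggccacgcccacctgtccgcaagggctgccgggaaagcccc
Pus7: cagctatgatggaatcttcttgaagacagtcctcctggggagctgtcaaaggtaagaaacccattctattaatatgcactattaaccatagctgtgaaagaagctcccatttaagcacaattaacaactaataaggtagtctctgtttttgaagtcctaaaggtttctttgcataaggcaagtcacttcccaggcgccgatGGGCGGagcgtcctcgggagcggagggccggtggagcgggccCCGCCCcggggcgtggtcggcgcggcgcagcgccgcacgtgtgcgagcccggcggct
The GC box was found in 5 of these 6 windows, beside 35.9% of all 32619 windows. The ETS core was found in 2 (15.0% of all) and the CCAAT box in 2 (37.6% of all). The AP-1 site, the cyclic AMP response element and the NBRE were found in 0. The comparison windows were not limited to open promoters, and the 6 regions missed the threshold, so these counts are descriptions. Promoters higher in high (Mybl2, Cchcr1, Htatip2) and lower in high (Ssb, Pus7) both held the GC box.

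The same comparison on recovered reads, the number of fragments over a peak's summit worked back from fold and p, gave calls around Nr4a1. Of 9589 shared regions with recovered reads in all 6 libraries, 10 were higher in high (0.104%) and 1 was lower (0.0104%, limma on median-centred log2 reads with Benjamini-Hochberg adjustment at 0.05). Of the 10, 9 lay within one block of 129900 bp on chromosome 15 (chr15:101210096-101339995), whose 20 union regions are nearest to Acvr1b, Grasp, Nr4a1, Atg101, Smim41 or Krt80. The block is a run of neighbouring regions whose local background was at least 10 times the genome-wide one in the high libraries. The low libraries fell below 10 times at both of its edges, with 7.66 to 8.01 at Acvr1b and 7.90 to 9.34 at Krt80. Its extent thus rested partly on the high libraries, and comparisons of the levels over the block are descriptions. The called regions were selected by recovered reads after the data had been examined.

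Inside Nr4a1, the region chr15:101258253-101259022 had 165, 146 and 173 summit reads in high and 89, 99 and 96 in low libraries. Every high library lay above every low library there (log2 difference 0.74 ± 0.0732 SE, limma adjusted p = 1.4e-11). The region over the printed promoter (chr15:101266306-101268384) had 215, 188 and 216 reads in high and 139, 157 and 138 in low libraries (0.49 ± 0.0603 SE, adjusted p = 2.3e-08). A region upstream of that promoter, 163 bp inside the annotated start of the gene (chr15:101253681-101254450) had 178, 149 and 180 reads in high and 93, 112 and 115 in low libraries (0.64 ± 0.0738 SE, adjusted p = 3.7e-09). A region 7277 bp outside the gene (chr15:101246073-101247178) had 212, 190 and 231 reads in high and 174, 176 and 168 in low libraries. Its difference was smaller (0.26 ± 0.0574 SE, adjusted p = 0.0190). That call was lost in 6 of 9 repeats, with the replicate block (adjusted p = 0.0578), with scaling to the genome-wide background (0.770), and without high replicate 1 or 3 or low replicate 1 or 3 (0.0523 to 0.363).

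The neighbours in the block moved alongside. Both tested regions of Grasp, a scaffold protein gene, had more reads in high, with 112, 88 and 120 against 69, 69 and 63 in low libraries at its promoter (chr15:101223790-101225386, log2 difference 0.63). Grasp's outer region (chr15:101240606-101241336) had 108, 97 and 116 in high and 63, 61 and 58 in low libraries (0.78). Atg101, a gene of autophagy initiation, had 148, 119 and 151 reads in high and 89, 111 and 102 in low libraries at its promoter (chr15:101283167-101284640, 0.44, adjusted p = 0.000472). This call was lost with scaling to the genome-wide background (adjusted p = 0.0729) and without low replicate 1 (0.0609). Regions near Smim41 (chr15:101315706-101316429) and Krt80, a keratin gene (chr15:101339479-101339995), had log2 differences of 0.75 and 0.80. In all, 11 of 11 shared regions of the block with recovered reads were higher in high, by 0.26 to 0.83, and 9 were called. Reads from a reporter construct that carried Nr4a1 sequence and reads from the endogenous locus cannot be told apart here.

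Local background in the block moved with these reads. It is the number of reads in the window around a peak, given here as a multiple of the library's genome-wide background. Its median over 11 shared regions was 73.3, 72.9 and 74.5 in high and 42.9, 42.1 and 43.5 in low libraries, a ratio of 1.72. The exact permutation test, two-sided, gave p = 0.10, the smallest possible. It gives only a scale, since values of the high libraries helped to set the block. The same median over all shared regions of the genome was 5.28 to 5.66 in the 6 libraries. Leaving out 1 library at a time gave a block ratio of 1.70 to 1.73. Fold, which divides by this background, ran the other way at the called Nr4a1 regions. It was 4.74, 5.34 and 4.83 in high and 5.94, 6.29 and 6.14 in low libraries at chr15:101258253-101259022, and 6.57, 7.28 and 6.69 in high and 9.34, 9.84 and 9.58 in low libraries over the promoter region. The log2 fold differences of -0.31 ± 0.148 and -0.50 ± 0.172 (SE) did not pass (limma adjusted p = 0.881 and 0.781). Over the block, fold was lower in high at 8 of 12 shared regions.

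**Figure D4:**
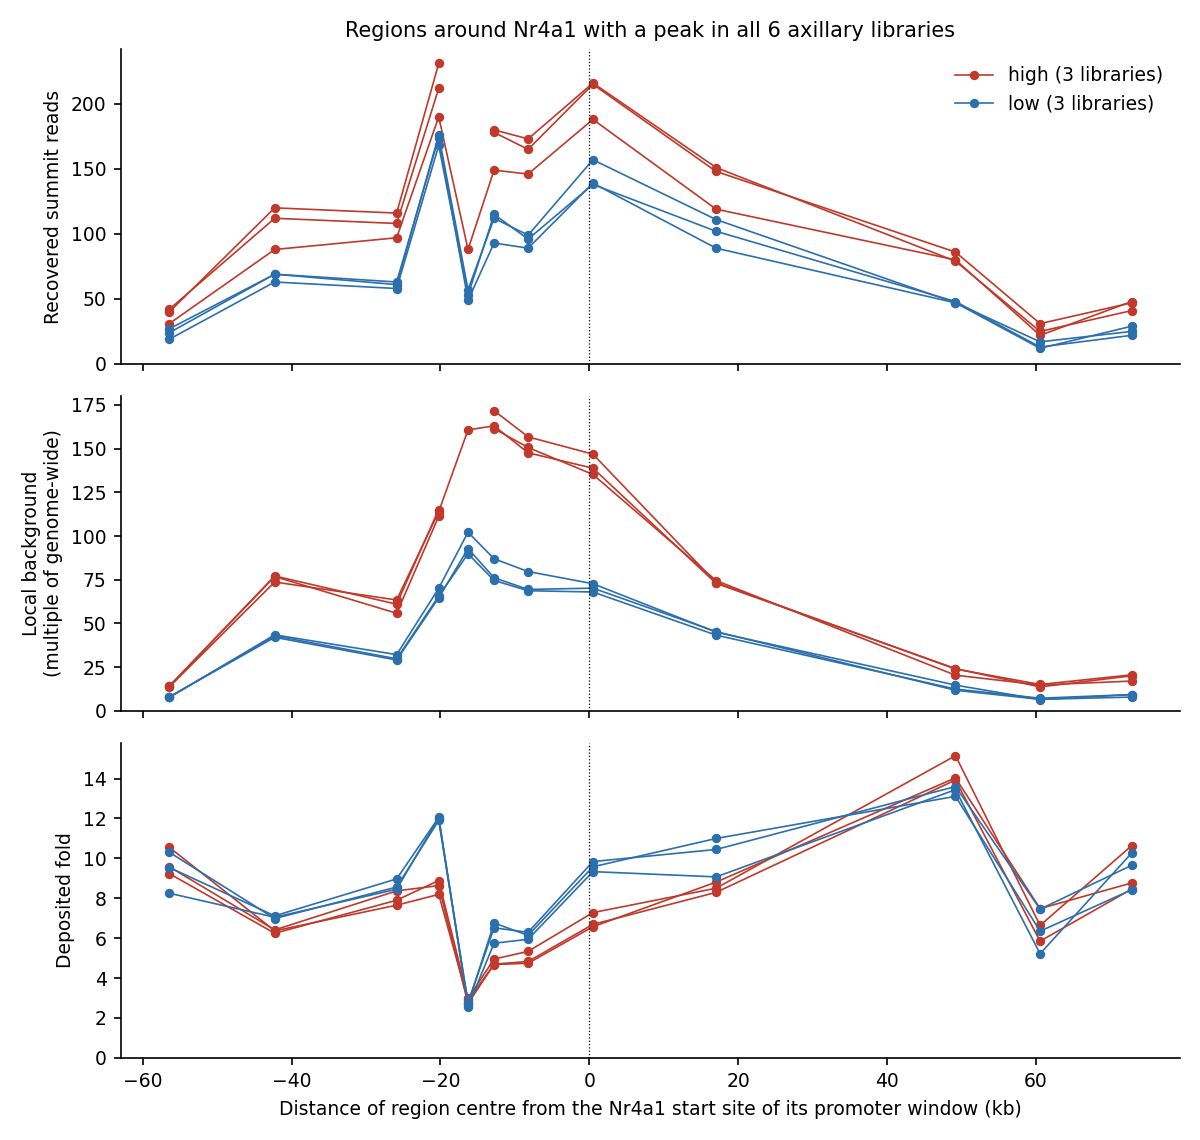
Recovered summit reads, local background as a multiple of the genome-wide background and deposited fold at the block's regions with a peak in all 6 axillary libraries, against the distance from the Nr4a1 start site in kb; red lines are the 3 high and blue lines the 3 low libraries. Reads and local background lie higher in high libraries (73.6 against 42.8 times background in the median), while fold is on average lower in high at 8 of the 12 regions; at 1 region reads could be recovered in 1 of 3 high libraries only.

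In the other organs the block's local background was 55.8 ± 0.962 in spleen high and 37.5 ± 2.54 in spleen low libraries, a ratio of 1.49. In mesenteric nodes it was 61.0 ± 0.689 in high and 42.0 ± 0.885 in low libraries (SD, n = 3 each), a ratio of 1.45. None of 10 block regions with a peak in all 18 libraries passed the test of the axillary difference in reads against the mean of the other organs' differences (limma interaction on recovered reads, adjusted p = 0.373 to 0.992). The block had been picked on axillary values, so their sizes are not compared between organs.

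Of the calls outside the block, a region inside Tnfsf11 was higher in high. Tnfsf11 encodes RANKL, a TNF family ligand of activated T cells (chr14:78306861-78307434, 896 bp from the gene's end). It had 30, 17 and 27 reads in high and 11, 11 and 11 in low libraries (log2 difference 1.04 ± 0.217 SE, limma adjusted p = 0.00822). The call was lost without high replicate 1 (adjusted p = 0.236) or high replicate 3 (0.10). The region that was lower in high lay inside Gabrb1, a neuronal receptor subunit gene next to Gabra4 (chr5:71903286-71904137), with 30, 20 and 30 reads in high and 54, 41 and 39 in low libraries (-0.76 ± 0.153 SE, adjusted p = 0.00527). It was lost without high replicate 2 (adjusted p = 0.103) or low replicate 1 (0.260). Fold at these regions had the same signs, 0.57 and -0.35 on the log2 scale, and did not pass.

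Cd5 itself had few peaks in axillary cells. The region over its promoter (chr19:10738798-10739186) had a peak in 2 of 3 high libraries, with folds of 5.72 and 4.76, and in 1 of 3 low libraries, with 5.97. A region 24733 bp outside the gene (chr19:10763519-10764000) had a peak in 2 of 3 high libraries (folds of 5.11 and 9.15) and 0 of 3 low ones. A region 8842 bp outside stood at 1 of 3 in each level, as did one 1636 bp outside, and a region inside the gene had none. No Cd5 region had a peak in all 6 libraries, so none entered the fit.

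Chromosome 14 had the largest difference in its share of peaks and in recovered reads among the 20 chromosomes. It held 4.21, 4.33 and 4.25% of the peaks in high and 3.98, 3.79 and 3.97% in low libraries (exact permutation test, two-sided, p = 0.10, the smallest possible), a difference of 0.348 percentage points. The shares did not overlap between the levels on chromosomes 1, 6, 9, 13 and 19 either, which gives the same smallest p, with differences of -0.108, -0.172, -0.11, -0.162 and 0.128 percentage points. At the 396 shared regions of chromosome 14 the median log2 difference in recovered reads was 0.13, or 1.10-fold, while those of the other 19 chromosomes lay between -0.04 and 0.00. The library medians behind it did not overlap between the levels on chromosome 14, nor on chromosome 9. Reads were higher in high at 75.8% of chromosome 14 regions and at 46.8% of the other regions. Along the chromosome in 5 stretches of 79 or 80 regions the medians were 0.13, 0.08, 0.23, 0.21 and 0.10, so the shift was above 0 in every stretch and largest in the third and the fourth. Of 913 axillary regions on this chromosome 15 were high-only (1.64%) and 2 low-only (0.219%), against 173 (0.815%) and 70 (0.33%) of 21235 elsewhere. The log2 fold median on chromosome 14 was 0.04, beside -0.03 to -0.00252 on the others. Local background on it was also higher in high, with a log2 difference of 0.15 beside -0.06 to 0.02 elsewhere. The regions of Tnfrsf19, Pspc1, Egr3 and Tnfsf11 lie on this chromosome, and the part of the shift in their values was not tested. Earlier results of these data had pointed to chromosome 14, so the test gives only a scale.

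**Figure D5:**
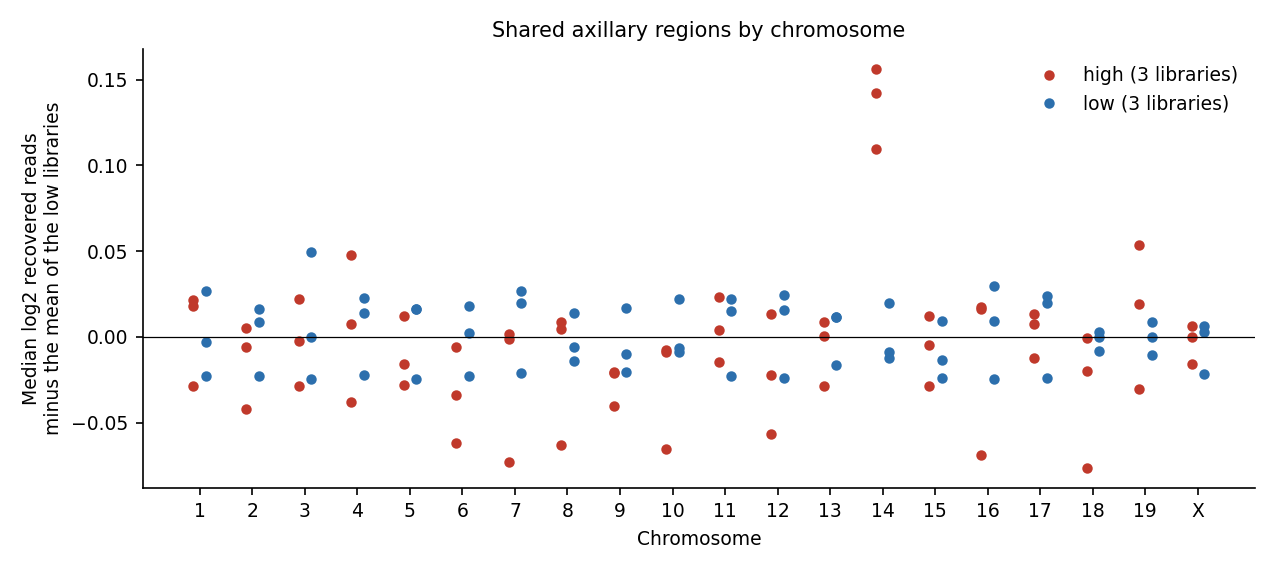
Median log2 recovered reads of shared regions per chromosome and axillary library, minus the mean of the 3 low libraries; red points are high and blue points low libraries. The 3 high libraries lie at 0.11 to 0.16 on chromosome 14 and between -0.08 and 0.05 on the other chromosomes.

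Peak shares on chromosome 14 were higher in high in the other organs too, at 4.29% ± 0.0524 in spleen high and 4.06% ± 0.0603 in spleen low libraries, and 4.07% ± 0.0344 in mesenteric high and 3.84% ± 0.0369 in mesenteric low libraries (SD, n = 3 each). The log2 difference in reads there was 0.08 in spleen, where the other chromosomes lay between -0.06 and 0.07, and 0.03 in mesenteric nodes, where the other chromosomes lay between -0.12 and -0.02.

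At shared regions the medians of the listed pathways lay close to that of all regions. The median log2 fold difference was -0.04 over 39 regions of TCR response genes, -0.01 over 37 of negative regulators, -0.05 over 33 of the TCR machinery and -0.05 over 35 of activation factors, beside -0.01 over all 9612 regions. It was -0.03 over 50 regions of naive and quiescence genes, -0.10 over 18 of helper lineage factors, -0.01 over 22 of homing genes and -0.06 over 14 of survival genes. Effector and memory genes had 0.03 over 8 regions, interferon response genes -0.05 over 7 and housekeeping genes -0.03 over 16. In these lists 0 regions passed on fold, and on recovered reads 4 did, the called Nr4a1 regions.

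The high against low difference was also compared between organs at 8756 regions with a peak in all 18 libraries. No region passed the test of the axillary difference in fold against the mean of the spleen and mesenteric differences (limma interaction with Benjamini-Hochberg adjustment, 0 called, smallest adjusted p = 0.303). At an unadjusted p under 0.05, 271 regions had a larger and 262 a smaller axillary difference. The Mybl2 start region, picked for its axillary difference of 0.58 (log2), had 0.11 in spleen and 0.01 in mesenteric nodes. Elk3 differed from that pattern, with 0.70 in axillary nodes, 0.47 in spleen and 0.57 in mesenteric nodes. The Ssb promoter had -0.65 in axillary nodes, 0.19 in spleen and 0.05 in mesenteric nodes.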

How the data were processed

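ATAC-seq peak lists of 18 libraries were used, 3 per level and organ. Per the submitters' processing notes, the authors used Trimmomatic 0.33, Bowtie2, bedtools and MACS, and the build was mm10; for the other tools no version is given in the sources used here. Each deposited list gives per peak a fold over local background (a ratio) and a −log10 p, both as the authors' peak caller wrote them, and the smallest −log10 p in the axillary lists was 5.00. Lists were deposited per sample, so replicates were compared as libraries.

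Only chromosomes 1 to 19 and X entered, with 90269 axillary peaks, and 123 axillary peaks on other sequences were left out. Overlapping peaks from the 18 lists were joined, which gave 33115 union regions, and a library held a region where a peak overlapped it by 1 bp or more. Equal lists kept the 14372 peaks of highest −log10 p. A region was named for whichever protein-coding gene had an end closest to it, and entered a gene list where that end was within 100000 bp. Read as (summit reads + 1) over (local background + 1), with p as a Poisson tail, the deposited fold and −log10 p together gave back whole summit reads and the local background for 99.9% of axillary peaks. Expected background reads times 10000 over the fragment estimate came out whole within 0.05 reads in 100% of these. This gives relative depth only, since total read numbers are not in the lists, so no interval from read totals was computed. Duplicate handling was not stated, and a recovered read is not an independent molecule.

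Levels were compared by exact permutation tests over libraries, two-sided, and by limma 3.58.1 (R 4.3.3) with trend on log2 fold, or on log2(reads + 1), of regions with a peak in all 6 libraries. Values were centred on the library median, and p-values were adjusted by Benjamini-Hochberg over all regions fitted with a threshold of 0.05. The fits were also run on simulated data with Poisson counting noise alone, in which local background did not change with the reads. That run therefore does not show how the fits treat regions such as those of the Nr4a1 block. Python 3.11.15, pandas 2.3.3, scipy 1.17.1 and matplotlib 3.10.9 were used. Members and gene lists were chosen with earlier results of these data known. Genes were named by rule: the 12 regions per direction of 3 against 0 libraries with the highest rank, the 6 of smallest p on each side of the fold fit (1 of them is not reported here), regions of listed genes in either class, and all regions of Nr4a1 and Cd5. Regions called on recovered reads, and the Nr4a1 promoter window, were chosen after their values were seen. Of 269 listed genes 267 were in the annotation (Ighm and Mx1 were not). Alternatives were list length, peak threshold, overlap, union, centring, measure, filter, trend, replicate block and leaving out each library.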

Additional observations from a re-analysis of the deposited data

How the results depend on the processing

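For 52 values of single named regions, 381 repeats under alternatives kept direction and side of the threshold or stayed close, 17 moved, 12 lost their call and 7 reversed, all 7 at Nr4a1. Values over libraries or all regions are not in that tally and follow here. The share of peaks near a gene end turned to 0.167 percentage points higher in high with equal lists, and lay between -1.50 and -0.619 when 1 library was left out. High-only regions numbered 117 with equal lists and 111 at a −log10 p of at least 10, and low-only regions 113 with equal lists and 112 with 50% of the region covered; leaving out 1 library gave 312 to 450 high-only and 144 to 214 low-only regions, since fewer libraries have to concur. On fold 0 regions were called, with −log10 p in place of fold 1 was higher in high (Smim41), and with recovered reads 10 were higher and 1 lower. Calls lower in high on recovered reads numbered 2 with equal lists and 0 to 2 without 1 library. At Nr4a1 the sign of the fold difference reversed on recovered reads (0.26, 0.64, 0.74 and 0.49, log2) and at 3 regions on −log10 p (0.23, 0.42 and 0.11), where the local background that fold divides by was higher in high. The chromosome 14 median was 0.11 when libraries were scaled to the genome-wide background. Without 1 library the difference in peak number was 604 to 1164 and in chromosome 14 share 0.287 to 0.382 percentage points. Same-numbered libraries did not deviate together (correlations of 0.0135, -0.00804 and -0.0223), and other pairs of high and low libraries had -0.0280 to 0.0367. These values cannot decide whether the numbers pair libraries, since differences between libraries were within counting noise. With the replicate block 0 regions were called on fold in either direction and 0 in the comparison of organs. On recovered reads 9 were higher and 1 lower. The 3 library measures had p = 0.25, the smallest an exact sign permutation of 3 pairs allows. Each peak lies wholly within its region, so the overlap alternative was run on the region covered. Relative depth of 8.48 to 10.2 reads per 10 kb limits what weak peaks can show.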
